A study of Mus musculus with 2 samples.

Results

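The 10 genes described here encode 8 ADAMTS proteases, Adamts1, Adamts2, Adamts3, Adamts5, Adamts6, Adamts9, Adamts12 and Adamts15, and 2 ADAMTS-like proteins, Adamtsl1 and Adamtsl3. They were found by exact gene symbol among the 32285 genes of the deposited tables, and all 10 had UMIs in each library. The genes were read in single-nucleus RNA-seq of mouse colon, with 1 library for WT mice and 1 for HIF-1α KO mice (Ncr1cre+ Hif-1α fl+/fl+). In the KO mice the promoter of Ncr1, the gene of the receptor NKp46, drives Cre, so that Hif-1α is deleted in NKp46-expressing innate lymphoid cells and not by design in the mesenchymal, endothelial or epithelial cells that form most of this report. The WT mice were littermates, and all mice of both groups, aged 8 to 12 weeks, received 4 cycles of 2% dextran sodium sulfate (DSS) for 3 days followed by 4 days of recovery. Colon was taken at day 28, and each library pooled 3 animals. With 1 library per genotype no difference between genotypes could be tested, and no p-value is given. Intervals are exact 95% intervals that cover counting error only.

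ADAMTS proteases are secreted zinc metalloproteases that act on the extracellular matrix. They carry a metalloprotease domain with a zinc-binding motif and thrombospondin repeats that help to anchor them in the matrix. ADAMTS-like proteins share the repeats and lack the protease domain, and several of them bind microfibrils. Adamts2 and Adamts3 remove the amino-terminal propeptide of fibrillar procollagens, and Adamts3 also activates Vegfc, the growth factor of lymphatic vessels. Adamts1, Adamts5, Adamts9 and Adamts15 belong to the members that cleave versican or aggrecan. In the gut the matrix is laid down mainly by fibroblasts and smooth muscle, and chronic colitis is accompanied by its remodelling.

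The coding sequence of the zinc-binding motif is shown because it separates the proteases from the ADAMTS-like members. It is given 5′ to 3′ from the GENCODE M21 transcripts on GRCm38, with the codons of the 3 zinc-binding histidines in capitals.
Adamts1: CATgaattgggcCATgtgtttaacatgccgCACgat
Adamts9: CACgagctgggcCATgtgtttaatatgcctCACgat
Adamts15: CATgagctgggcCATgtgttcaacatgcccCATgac
Adamts5: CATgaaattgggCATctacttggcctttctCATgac
Adamts2: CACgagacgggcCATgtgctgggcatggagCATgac
Adamts3: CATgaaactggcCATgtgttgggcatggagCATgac
Adamts6: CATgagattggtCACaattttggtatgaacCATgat
Adamts12: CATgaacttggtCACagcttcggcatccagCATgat

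A match to the motif was found in 8 of the 10 genes. No coding transcript of Adamtsl1 or Adamtsl3 held it, among 6 and 3 transcripts. Over the 36 bases, 14 positions were identical in all 8 genes. The closest pair was Adamts2 and Adamts3 with 4 differing bases, followed by Adamts1 and Adamts9 with 5, and the most distant pairs differed at 16. In each gene the motif crossed an exon junction. In Adamts6 it lies at chr13:104352847-104352863 in exon 9 and chr13:104366794-104366812 in exon 10, on the plus strand. In Adamts9 it lies at chr6:92908477-92908493 in exon 8 and chr6:92905282-92905300 in exon 9, on the minus strand. In Adamts15 it lies at chr9:30911681-30911690 in exon 2 and chr9:30911252-30911277 in exon 3, also on the minus strand.

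The members differ widely as genes. Adamts1 (chr16:85793827-85803113) spans 9.29 kb and Adamts15 (chr9:30899155-30922452) 23.3 kb, while Adamtsl1 (chr4:85514172-86428385) spans 914 kb. Adamts1 and Adamts5 (chr16:85856173-85901828) are neighbours on the minus strand of chromosome 16, separated by 53.1 kb. The remaining members are Adamts2 (chr11:50602084-50807573), Adamts3 (chr5:89677087-89883334), Adamts6 (chr13:104287835-104496695), Adamts9 (chr6:92772699-92943492), Adamts12 (chr15:11064790-11349231) and Adamtsl3 (chr7:82335694-82614450), and all 10 are annotated as protein-coding. Since the number of UMIs per transcript can depend on gene length in nuclei, levels are compared here between cells for 1 gene and not between genes.

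The libraries differed in depth. The WT library kept 4884 nuclei with a median of 2059 UMIs, and the HIF-1α KO library kept 4702 nuclei with a median of 4197 UMIs. Levels are given as UMIs of a gene per 1000000 UMIs of a class (CPM), and shares of nuclei are also given after each nucleus was thinned to 1000 UMIs. The libraries shared 3 barcodes. Hif1a stood at 172 CPM (165 to 179) in WT and 199 CPM (193 to 205) in HIF-1α KO, and Ncr1 had 1 and 0 UMIs. Too few nuclei carried Ncr1 to check the deletion, and a deletion in so few cells would not be seen in the level of all nuclei. Clusters were named from marker genes, and a name means only that a cluster had the markers of that cell type. The T and innate lymphoid-like class, of 64 and 124 nuclei, also had Cxcl2, S100a9 and Il1b among its 10 leading genes. At a clustering resolution of 2 a cluster of 51 and 72 nuclei was named myeloid. The T and innate lymphoid-like cluster then held 13 and 52 nuclei. Fibroblast-like nuclei numbered 203 in WT and 113 in HIF-1α KO, and smooth muscle-like nuclei 298 and 136. Blood endothelial-like nuclei numbered 79 and 33, lymphatic endothelial-like nuclei 75 and 40, and mesothelial-like nuclei 17 and 13. The 10 fibroblast markers together stood at 3496 and 4194 CPM in fibroblast-like nuclei, against 65.6 and 25.9 CPM in goblet-like nuclei, and the 10 smooth muscle markers at 11512 and 19759 CPM in smooth muscle-like nuclei, against 257 and 171 CPM.

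Taken over all nuclei, the 10 members together stood at 232 CPM (224 to 240) in WT and 103 CPM (98.6 to 107) in HIF-1α KO. Each of the 10 was at least 1.5-fold lower in the HIF-1α KO library, against 16.5% of the 14393 genes with at least 50 UMIs. Adamts9, a versican- and aggrecan-cleaving protease, stood at 41.2 against 14.1 CPM. Adamts2 was at 17.3 against 6.52 CPM. Adamts3 and Adamts5 were the least lowered, at 16.6 against 10.7 CPM and 4.30 against 2.75 CPM. The plot of ratios shows all 10 on this side of the limit.

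The cells that carry most of these genes were fewer in the HIF-1α KO library. Fibroblast-like, smooth muscle-like and mesothelial-like nuclei and unnamed cluster 20 together gave 10.0% of all UMIs in WT and 3.92% in HIF-1α KO, and the endothelial-like classes gave 2.89% and 1.03%. In all-nuclei values, fewer cells of a type and less RNA per cell cannot be told apart. When the levels of each class in the HIF-1α KO library were weighted by the share of UMIs that the class had in WT, 4 of the 10 members stayed at least 1.5-fold lower, against 7.36% of all genes. These were Adamts15 at 45.1 against 22.9 CPM, Adamts9 at 41.2 against 27.4 CPM, and the sparse Adamts1 and Adamtsl3. Adamts6 then stood at 44.4 against 44.1 CPM, Adamts12 at 17.7 against 17.5 CPM and Adamtsl1 at 36.4 against 34.2 CPM. Adamts5 changed direction, at 4.30 against 5.66 CPM. This weighting was chosen after the data were seen.

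**Figure D1:**
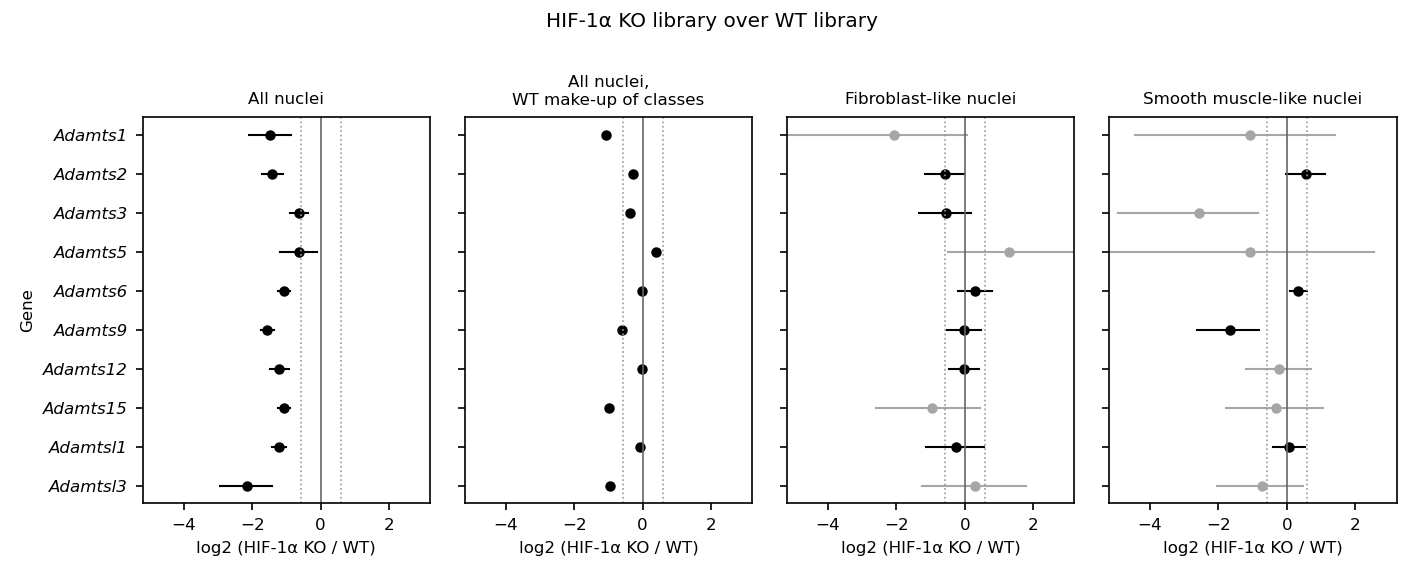
Each point is the log2 ratio of the HIF-1α KO library to the WT library for 1 gene, in all nuclei, in all nuclei at the WT make-up of classes, in fibroblast-like nuclei and in smooth muscle-like nuclei. Lines are exact 95% counting intervals, cut at the axis limits and not available for the second panel, dotted lines mark 1.5-fold, and grey marks genes with fewer than 50 UMIs. All 10 points lie left of the dotted line in the first panel, and in smooth muscle-like nuclei Adamts9 is the black point beyond it.

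Across the classes the members had different patterns. Adamts6 was highest in smooth muscle-like nuclei, at 426 CPM (379 to 476) in WT and 537 CPM (475 to 606) in HIF-1α KO. These nuclei held 52.0% of all its UMIs. Fibroblast-like nuclei followed with 158 CPM (125 to 197) and 194 CPM (149 to 248), clear of the smooth muscle-like interval in each library. B-like nuclei came next with 80.5 CPM (41.6 to 141) and 102 CPM (70.4 to 142), from 12 and 34 UMIs, and their intervals overlapped in WT with those of the fibroblast-like nuclei. In goblet-like nuclei, which serve here as a background for free RNA, Adamts6 was at 11.2 and 4.77 CPM. After thinning, 27.9% of smooth muscle-like nuclei had an Adamts6 UMI in WT and 20.9% in HIF-1α KO, against 1.01% and 0.418% of goblet-like nuclei, so that its share in smooth muscle-like nuclei stood well above background.

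Adamts9 was the member of blood vessels. Blood endothelial-like nuclei held 1143 CPM (993 to 1310) in WT and 852 CPM (695 to 1035) in HIF-1α KO, and fibroblast-like nuclei were next with 182 CPM (146 to 223) and 178 CPM (135 to 230). A UMI of Adamts9 was found in 50 of 79 and 21 of 33 blood endothelial-like nuclei. The gene stood among the 10 leading genes of that cluster although ADAMTS genes had been kept out of the clustering. Lymphatic endothelial-like nuclei had 94.2 CPM (56.7 to 147) and 113 CPM (61.8 to 190), and were indistinguishable in WT from smooth muscle-like nuclei at 89.4 CPM (68.7 to 114).

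Adamtsl1, which has no protease domain, showed the opposite endothelial pattern. It stood at 684 CPM (575 to 808) and 961 CPM (796 to 1150) in lymphatic endothelial-like nuclei, against 98.9 CPM (58.6 to 156) and 16.7 CPM (2.02 to 60.4) in blood endothelial-like nuclei. Mesothelial-like nuclei, from the lining of the outer surface, reached 611 CPM (421 to 859) and 1063 CPM (791 to 1397), and their intervals overlapped with the lymphatic ones. Smooth muscle-like nuclei followed with 135 CPM (109 to 165) and 140 CPM (109 to 177). At 1000 UMIs per nucleus, 30 of 75 and 20 of 40 lymphatic endothelial-like nuclei had an Adamtsl1 UMI, against 1.68% and 0.104% of goblet-like nuclei.

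Adamts12, which is known to cleave the cartilage matrix protein COMP, was a gene of fibroblast-like nuclei, at 238 CPM (197 to 284) in WT and 233 CPM (184 to 292) in HIF-1α KO. Smooth muscle-like nuclei had 39.7 and 34.1 CPM. Enteric glia-like nuclei had 390 CPM (213 to 654) and 194 CPM (88.5 to 367), but from 13 and 9 nuclei, and their intervals overlapped with those of the fibroblast-like nuclei. The lymphatic endothelial-like class held 1 UMI of Adamts12 in WT and 27 in HIF-1α KO. Of the 27 UMIs, 25 were in 1 nucleus, so that the 218 CPM of that class rests on that nucleus.

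The procollagen proteases differed from each other in spread. Adamts2 stood at 184 CPM (148 to 225) and 123 CPM (87.8 to 167) in fibroblast-like nuclei, and at 75.2 CPM (56.3 to 98.3) and 110 CPM (83.1 to 144) in smooth muscle-like nuclei. Enteric neuron-like nuclei, 27 in WT and 22 in HIF-1α KO, had 206 CPM (140 to 292) and 107 CPM (66.1 to 163). Mesothelial-like nuclei had 185 and 146 CPM of Adamts2 and 92.6 and 104 CPM of Adamts3, from at most 10 UMIs in a library. In goblet-like nuclei Adamts2 was near 0, at 1.60 and 0.796 CPM. Adamts3 stood at 104 CPM (77.5 to 136) and 70.7 CPM (44.8 to 106) in fibroblast-like nuclei. Unlike Adamts2 it was also seen in goblet-like nuclei, at 19.7 CPM (13.9 to 27.2) and 18.7 CPM (15.1 to 22.9), against 3.70 and 2.71 CPM in absorptive colonocyte-like nuclei, with intervals that did not overlap in either library. Cycling-like nuclei had 10.8 and 14.9 CPM and crypt enterocyte-like nuclei 14.9 and 6.71 CPM, and the intervals of each overlapped the goblet-like ones in at least 1 library.

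Adamts15 had most of its UMIs in epithelial-like nuclei, which also gave most UMIs of all genes. The epithelial-like classes together with unnamed clusters 0, 2 and 5 held 90.1% of its UMIs in WT and 94.7% in HIF-1α KO, where they gave 83.6% and 91.6% of the UMIs of all genes. Its level over these nuclei was 48.6 and 22.1 CPM, against 31.5 and 20.5 CPM over the mesenchymal nuclei. Unnamed cluster 5 was led by AY036118, Gpx2 and Igkc, and its closest marker list was that of plasma cells, with 1 of 8 in excess. Crypt enterocyte-like nuclei had the highest level of the classes with at least 50 nuclei per library, at 112 CPM (95.1 to 132) and 48.5 CPM (41.3 to 56.7), with intervals that overlapped those of unnamed cluster 2. Goblet-like nuclei had 17.1 CPM (11.7 to 24.1) and 6.37 CPM (4.35 to 8.99). Mesothelial-like nuclei had 185 CPM (88.9 to 341) and 104 CPM (33.8 to 243), from 10 and 5 UMIs.

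The last 3 members were sparse. Adamts5, a main aggrecanase of cartilage, had 57 and 65 UMIs in all nuclei and stood highest in lymphatic endothelial-like nuclei, at 59.5 CPM (30.7 to 104) and 121 CPM (67.8 to 200). Adamts1 had 59 and 38 UMIs, with its highest level in enteric neuron-like nuclei at 33.2 and 35.6 CPM from 5 and 7 UMIs. Adamtsl3 had 55 and 22 UMIs, of which smooth muscle-like nuclei held 39.0%. For these 3 genes the leading class and the one after it had overlapping intervals in at least 1 library.

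**Figure D2:**
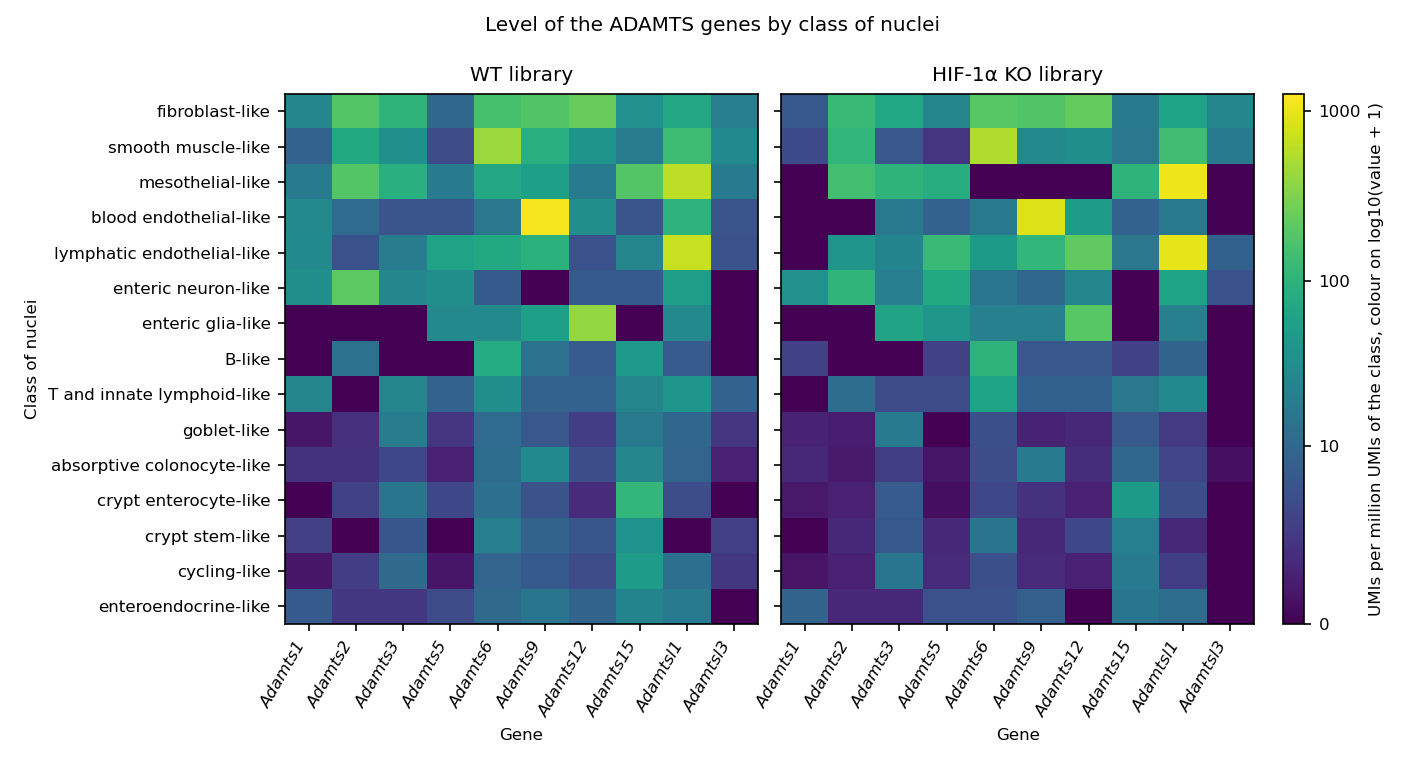
Colour gives the level of each of the 10 genes in 15 classes of nuclei, in CPM on a log10(value + 1) scale, with the WT library on the left and the HIF-1α KO library on the right. The brightest fields are Adamts9 in blood endothelial-like nuclei, Adamtsl1 in lymphatic endothelial-like and mesothelial-like nuclei, and Adamts6 in smooth muscle-like nuclei, in each library.

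Genes whose level followed a member most closely over 10 classes in each library were found by the Pearson correlation of log2(CPM + 10) over these 20 points, among 10971 genes. The 10 were the named classes with at least 50 nuclei in each library, so blood endothelial-like, lymphatic endothelial-like and mesothelial-like nuclei, where Adamts9 and Adamtsl1 were highest, did not enter. The points share 2 libraries, so r is a description. Over these classes Adamts2 was most like Antxr1, an anthrax toxin receptor that binds collagen VI (r = 0.976). Adamts12 was most like the laminin gene Lamb1 (r = 0.986), and Col1a2, a chain of collagen I, was among its first 3. Adamts6 was most like Cep85l (r = 0.963), with the integrin gene Itgb3 next, and Adamts9 was most like the cytokine receptor gene Osmr (r = 0.946). Adamtsl1 was most like Fn1, the fibronectin gene (r = 0.953), Adamts3 like the complement gene C4b (r = 0.874) and Adamts15 like Tln2 (r = 0.788). Between members, Adamts9 and Adamts12 had the highest r (0.928).

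The first comparison within a class was that of fibroblast-like nuclei. Of the 10 members, 6 had at least 50 UMIs and none reached 1.5-fold in either direction, where 10.8% of 3648 genes were higher and 7.04% lower in HIF-1α KO. The nearest to the limit was Adamts2, with 92 and 40 UMIs and a log2 ratio of -0.58 (-1.15 to -0.03). Adamts3, with 52 and 23 UMIs, had a log2 ratio of -0.55. Under 6 of the settings tried below, at least 1 of these procollagen proteases passed 1.5-fold, always lower, so that the count of 0 depends on where the class is drawn and how it is scaled. Adamts6 had a log2 ratio of 0.30, and Adamts9 and Adamts12 were each within 0.03 of 0. Their intervals of -0.53 to 0.46 and -0.46 to 0.40 leave room for differences of either sign. The median over the 6 members was -0.15, beside 0.08 over all genes tested.

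The mesenchymal nuclei were clustered again, and the fibroblast-like nuclei among them split into subclusters. Their make-up differed between the libraries, since subcluster 5, with 61 nuclei of this class and 2 of 8 pericyte markers in excess, held 63 nuclei in WT and 5 in HIF-1α KO, and subcluster 8 held 3 and 29. Subcluster 1, with 80 and 33 nuclei and led by Mmp13, Lef1 and Pdgfra, held 5 of 8 markers of crypt-top fibroblasts. Here Adamts12 stood at 306 and 264 CPM and Adamts9 at 264 and 226 CPM, each with overlapping intervals. Adamts6 in subcluster 1 was 1.83-fold higher in HIF-1α KO, at 209 CPM (155 to 276) against 384 CPM (286 to 505), where 14.2% of 1679 genes were higher by this limit. Its UMIs came from 20 and 10 nuclei. Subcluster 2, with 61 and 49 nuclei and led by Edil3, Lepr and Scn7a, held 53 and 22 UMIs of Adamts2. There the gene was 2.30-fold lower in HIF-1α KO, at 355 CPM (266 to 464) against 154 CPM (96.5 to 233), where 9.44% of 1250 genes were lower. After thinning, 31.1% and 24.5% of its nuclei had an Adamts2 UMI, with overlapping intervals of 19.9 to 44.3% and 13.3 to 38.9%.

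In smooth muscle-like nuclei 4 members had at least 50 UMIs and 1 reached 1.5-fold, where 7.68% of 4468 genes were lower and 10.9% higher. Adamts9 had 63 UMIs in 33 of 298 WT nuclei and 14 UMIs in 9 of 136 HIF-1α KO nuclei. The levels were 89.4 CPM (68.7 to 114) and 28.1 CPM (15.3 to 47.1), a log2 ratio of -1.67 (-2.62 to -0.82), and these intervals did not overlap. The 10 blood endothelial markers together stood at 63.8 and 46.1 CPM in these nuclei, with 1 and 4 of them at 0, and their part in the result was not tested. The share of nuclei with an Adamts9 UMI after thinning was 4.03% (2.10 to 6.93) and 2.99% (0.820 to 7.47), too few for a difference to be seen, and the log2 ratio of thinned counts was -0.51 from fewer than 50 UMIs.

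The other smooth muscle values were closer. Adamts6 had 300 and 268 UMIs and a log2 ratio of 0.34 (0.09 to 0.58), Adamts2 one of 0.55 and Adamtsl1 one of 0.06. After thinning the log2 ratio of Adamts6 was -0.08, outside that interval, that of Adamts2 0.21 and that of Adamtsl1 -0.30. Adamts3 fell short of 50 UMIs, with 25 in WT against 3 in HIF-1α KO. The median over the 4 members tested was 0.20, beside 0.03 over all genes tested. The class was not of the same make-up in the libraries. Subcluster 0, nearly all of whose nuclei were of this class, held 131 nuclei in WT and 7 in HIF-1α KO and had no smooth muscle marker in excess over the other mesenchymal nuclei. Epithelial markers stood at 4728 and 6211 CPM in it, against 1988 and 3238 CPM in subcluster 6, the lowest of the subclusters in WT. They were at 3045 and 6350 CPM in subcluster 3, 4742 and 5627 CPM in subcluster 5 and 3719 and 8543 CPM in subcluster 8. The part of these markers in the result was not tested. Without subclusters 0, 5 and 8, which were each mostly from 1 library, Adamts9 stood at 116 against 29.6 CPM, a log2 ratio of -1.98, and Adamts6 had a log2 ratio of 0.00.

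Among the smooth muscle-like nuclei Adamts6 was highest in subclusters 3 and 9. Subcluster 3, with 53 nuclei in each library and led by Alkal1 and Bdnf, had 1095 CPM (927 to 1284) and 878 CPM (720 to 1060). Subcluster 9, with 21 and 8 nuclei and led by Hhip and Trpc6, had 1081 CPM (792 to 1442) and 1466 CPM (1037 to 2012). Subcluster 6, in which all 10 smooth muscle markers were in excess, had 276 and 256 CPM. Subcluster 4, with 7 of these markers, was 2.97-fold higher in HIF-1α KO, at 145 CPM (89.6 to 221) against 430 CPM (348 to 526), where 14.1% of 1481 genes were higher. In this subcluster 26 of the 94 HIF-1α KO UMIs lay in 1 nucleus. The share of its nuclei with an Adamts6 UMI after thinning was 7 of 57 in WT and 3 of 40 in HIF-1α KO.

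Adamts9 was spread over these subclusters in WT. It had 20 UMIs in subcluster 3 in WT and 0 in HIF-1α KO, where 3 counts would be 24.4 CPM, and 12 of the 20 were in 1 nucleus. In subcluster 4 it had 9 and 2 UMIs and in subcluster 6 it had 19 and 5. Subcluster 9 ran the other way, with 4 UMIs in WT and 7 in HIF-1α KO. Adamtsl1 was highest among the smooth muscle-like subclusters in subcluster 6, at 406 CPM (301 to 535) and 350 CPM (247 to 483). In the mesothelial-like nuclei Adamtsl1 was 1.74-fold higher in HIF-1α KO, with 33 and 51 UMIs from 17 and 13 nuclei, where 22.4% of 232 genes were higher.

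**Figure D3:**
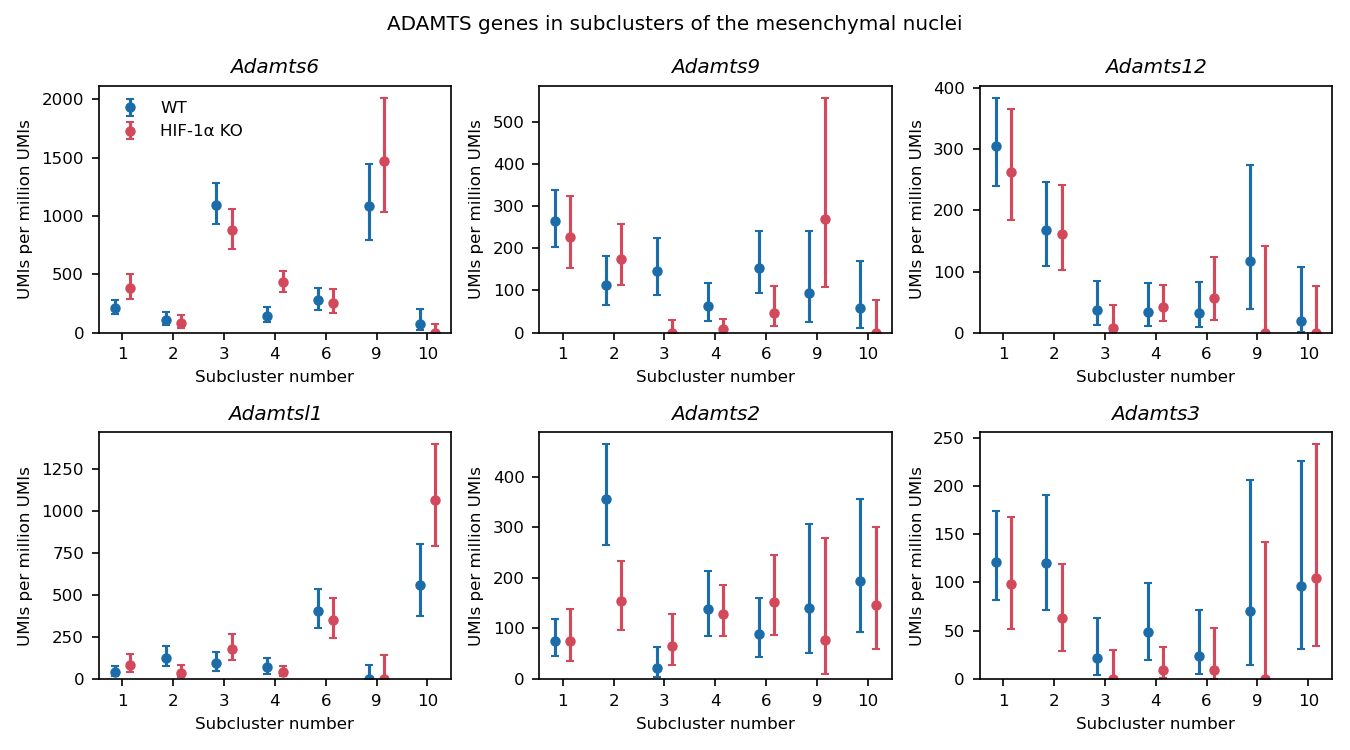
Points give the level of 6 genes in CPM in mesenchymal subclusters 1, 2, 3, 4, 6, 9 and 10, with exact 95% counting intervals, for WT in blue and HIF-1α KO in red. Adamts6 peaks in subclusters 3 and 9, Adamts12 in subcluster 1, Adamts2 in subcluster 2 in WT and Adamtsl1 in subcluster 10, which is the mesothelial-like one.

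The endothelial members were read in vessel nuclei. Adamts9 in blood endothelial-like nuclei had a log2 ratio of -0.42 (-0.78 to -0.08) from 208 and 102 UMIs, with 28 and 36 UMIs in the richest nucleus, and did not reach 1.5-fold, where 8.45% of 1337 genes were lower by it. Thinned, 43.0% (31.9 to 54.7) and 33.3% (18.0 to 51.8) of these nuclei had an Adamts9 UMI. Adamtsl1 in lymphatic endothelial-like nuclei had a log2 ratio of 0.49 (0.12 to 0.86) from 138 and 119 UMIs, also short of 1.5-fold, where 13.7% of 1505 genes were higher by it. In enteric neuron-like nuclei Adamts2 was 1.93-fold lower in HIF-1α KO, with 31 and 21 UMIs, where 9.32% of 1266 genes were lower.

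Adamts15 was at least 1.5-fold lower in HIF-1α KO in 5 epithelial populations. In crypt enterocyte-like nuclei it had 151 UMIs in WT and 159 in HIF-1α KO, and the log2 ratio of the levels given above was -1.21 (-1.54 to -0.88), 2.31-fold lower, where 7.87% of 8187 genes were lower. In absorptive colonocyte-like nuclei it stood at 24.5 CPM (18.4 to 32.1) against 10.2 CPM (7.75 to 13.1), where 14.9% of genes were lower. In cycling-like nuclei it stood at 50.3 CPM (40.6 to 61.6) against 18.2 CPM (12.9 to 24.8), where 7.32% were lower. Goblet-like nuclei had 32 UMIs in each library and were 2.68-fold lower, where 10.7% of genes were lower. Unnamed cluster 2, led by Grin2b, Htr4 and Cftr, stood at 96.9 CPM (79.4 to 117) against 47.9 CPM (39.5 to 57.6), where 7.86% were lower. In each of these 5 populations the WT and HIF-1α KO intervals were apart.

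The other populations did not show this difference as clearly. Crypt stem-like nuclei had 37.8 and 20.7 CPM and enteroendocrine-like nuclei 23.8 and 15.1 CPM, from 30 and 23 UMIs in all, with overlapping intervals. Unnamed cluster 0 had 42.7 and 35.6 CPM, and unnamed cluster 5 had 38.4 and 37.2 CPM. After thinning, 9.68% (6.87 to 13.1) of crypt enterocyte-like nuclei had an Adamts15 UMI in WT and 3.18% (1.86 to 5.04) in HIF-1α KO, and these intervals were apart too. The 8 markers of crypt enterocytes together stood at 3575 and 3292 CPM in this class.

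The crypt enterocyte-like nuclei separated by library when the libraries were not integrated. They then fell into 2 clusters, 1 with 51 WT and 635 HIF-1α KO nuclei and 1 with 535 and 19, the latter led by Adamts15. Within the first of these Adamts15 stood at 68.8 CPM (40.1 to 110) and 51.3 CPM (44.1 to 59.4), and within the second at 115 CPM (99.0 to 132) and 41.0 CPM (8.46 to 120), lower in HIF-1α KO in each but with overlapping intervals. Over 8 other settings, chosen after the data were seen, the log2 ratio of Adamts15 in crypt enterocyte-like nuclei ran from -1.71 to -0.997 and stayed past 1.5-fold.

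**Figure D4:**
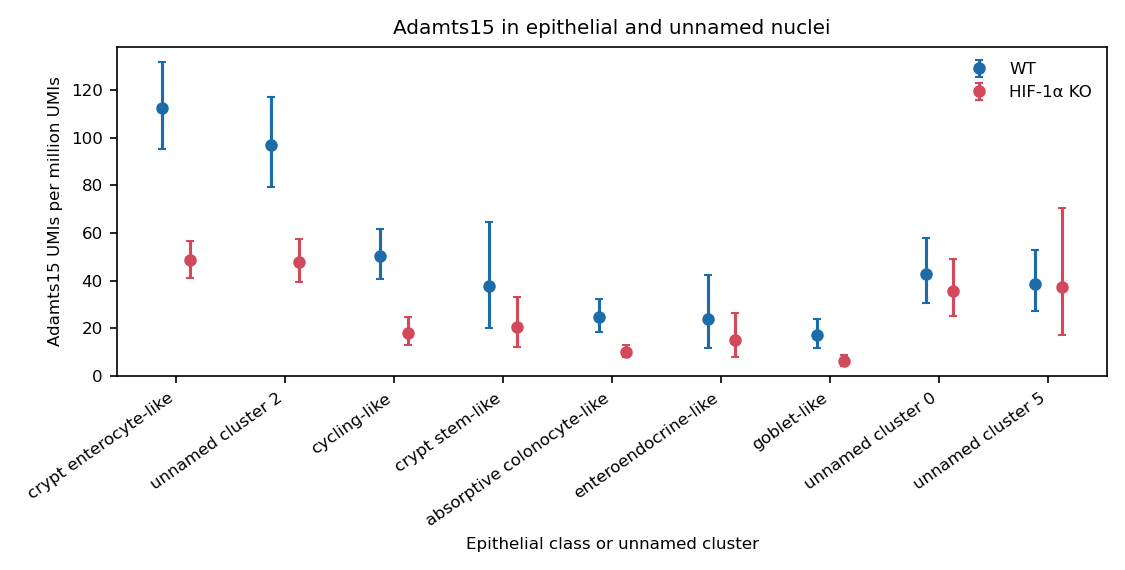
The level of Adamts15 in CPM is plotted for 6 epithelial-like classes, cycling-like nuclei among them, and unnamed clusters 0, 2 and 5, with exact 95% counting intervals, for WT in blue and HIF-1α KO in red. The HIF-1α KO point is the lower one in all 9 populations, and the intervals are apart in crypt enterocyte-like, cycling-like, absorptive colonocyte-like and goblet-like nuclei and in unnamed cluster 2.

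Members of mesenchymal and endothelial cells were also lower in epithelial-like nuclei, at levels well below those in their main classes. Over the epithelial-like classes and unnamed clusters 0, 2 and 5, Adamts12 stood at 4.69 and 1.39 CPM, Adamtsl1 at 13.3 and 3.89 CPM and Adamts2 at 3.16 and 0.833 CPM. This pool holds unnamed cluster 5, of 667 and 98 nuclei. The 10 members together stood there at 208 and 99.2 CPM, against 72.6 and 36.2 CPM in goblet-like nuclei. In goblet-like nuclei alone Adamts12 stood at 2.67 and 1.19 CPM, Adamtsl1 at 9.61 and 2.39 CPM and Adamts2 at 1.60 and 0.796 CPM. These rest on at most 18 UMIs of a gene in a library. Adamts6 was lower in absorptive colonocyte-like nuclei, at 11.6 against 4.40 CPM, and in unnamed cluster 5, from 48 and 4 UMIs in 667 and 98 nuclei, where 11.6% of genes were lower. Markers of other cell types were also read in goblet-like nuclei. There the 10 fibroblast markers stood at 65.6 and 25.9 CPM, the 10 smooth muscle markers at 257 and 171 CPM and the 10 blood endothelial markers at 56.0 and 26.3 CPM. Lymphatic endothelial markers stood at 34.2 and 16.1 CPM. Enteric neuron markers stood at 232 and 96.9 CPM, and B cell markers at 156 and 63.5 CPM. Plasma cell markers were at 78.4 and 36.2 CPM, pericyte markers at 37.9 and 15.7 CPM and mesothelial markers at 116 and 85.5 CPM. Enteric glia markers, at 122 and 114 CPM, and T and innate lymphoid markers, at 118 and 103 CPM, differed less. The only lists outside the epithelium that ran the other way were interstitial cells of Cajal, adipocytes and myeloid cells. They stood at 470 and 767 CPM, 259 and 323 CPM and 60.8 and 97.7 CPM. In WT, 2 of the 6 adipocyte markers had a UMI. The part of any of these markers in the result was not tested. Adamts9 in absorptive colonocyte-like nuclei was above its goblet-like level of 5.87 and 0.995 CPM, at 28.7 against 17.3 CPM and 1.66-fold lower in HIF-1α KO, and 29 of its 102 UMIs in HIF-1α KO lay in 1 nucleus.

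The partners of the ADAMTS proteases were read from lists, whose counts stand beside 10.8% of all genes higher and 7.04% lower in fibroblast-like nuclei and 10.9% and 7.68% in smooth muscle-like nuclei. Of 5 procollagen genes tested in fibroblast-like nuclei, Col1a1, a chain of collagen I, was lower in HIF-1α KO, at 393 against 240 CPM, and the other 4 did not reach 1.5-fold. In smooth muscle-like nuclei none of 5 did. Vcan, the versican gene, was at 333 and 341 CPM in fibroblast-like nuclei, the class where it was highest. Vegfc, which Adamts3 activates with Ccbe1, did not reach 1.5-fold in fibroblast-like nuclei, at 150 against 221 CPM. Neither Vegfc nor Ccbe1 reached it in smooth muscle-like nuclei. Vegfc was highest in the 79 and 33 blood endothelial-like nuclei, where it was higher in HIF-1α KO, at 132 against 259 CPM. Fn1 was higher in HIF-1α KO in fibroblast-like nuclei, at 281 against 449 CPM, and in smooth muscle-like nuclei, at 671 against 1129 CPM. Among 9 genes of microfibrils and adhesive matrix tested in smooth muscle-like nuclei 3 were higher and none lower, beside 10.9% and 7.68% of all genes, with Postn at 291 against 469 CPM and Fbn2 at 35.5 against 92.2 CPM. In fibroblast-like nuclei 2 of 7 were higher and 1 lower, Eln, the elastin gene, at 150 against 79.9 CPM. Eln ran the other way in blood endothelial-like nuclei, where it was highest, at 346 and 510 CPM. It did so too in smooth muscle-like nuclei, the next class, at 150 and 203 CPM.

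Regulators and other proteases of the matrix differed by class. Timp3, the inhibitor with the broadest action on ADAMTS proteases, stood at 53.9 and 84.2 CPM and Timp2 at 51.1 and 104 CPM in smooth muscle-like nuclei, where 2 of 3 inhibitor genes tested were higher. None of 3 reached 1.5-fold in fibroblast-like nuclei. In lymphatic endothelial-like nuclei, where Timp3 was highest, Timp3 and Timp2 ran the other way, at 1006 and 339 CPM and at 213 and 40.4 CPM. Timp2 was highest in mesothelial-like nuclei, at 241 and 104 CPM. Pcsk5, a proprotein convertase, was lower in fibroblast-like nuclei, at 347 against 203 CPM. It was also lower in smooth muscle-like nuclei, with 67 and 31 UMIs and an interval of the log2 ratio of -1.28 to 0.02. Pcsk5 was highest in crypt enterocyte-like nuclei, at 326 and 408 CPM, followed by absorptive colonocyte-like nuclei at 300 and 302 CPM. Of 7 other metalloproteases tested in fibroblast-like nuclei 3 were lower and none higher, beside 7.04% and 10.8% of all genes, Mmp13 at 385 against 36.9 CPM, Adam12 at 202 against 126 CPM and Mmp14 at 188 against 123 CPM. Mmp13 ran the other way in the 75 and 40 lymphatic endothelial-like nuclei, at 0 and 331 CPM. There Mmp14 stood at 169 and 80.8 CPM. In this class the 10 fibroblast markers stood at 89.2 and 275 CPM and the 10 lymphatic endothelial markers at 6831 and 4046 CPM. The part of these markers in the Mmp13 values, and the spread of its UMIs over nuclei, was not tested. Adam12 also ran the other way in the 79 and 33 blood endothelial-like nuclei, at 121 and 293 CPM. In smooth muscle-like nuclei 1 of 8 was lower, Adam15, and 1 higher, Mmp16. Of the 5 genes listed for myofibroblasts 4 were higher there, where 10.9% of all genes were, the contractile and filament genes Actg2, Acta2 and Des and the growth factor gene Ptn, with Actg2 at 1444 against 3749 CPM. Actg2, Acta2 and Des are themselves among the 10 smooth muscle markers used to name this class. Those 10 together stood at 11512 against 19759 CPM, which is therefore not a separate observation. Subcluster 0, which had none of the 10 in excess, gave 131 nuclei in WT against 7. The part of the markers and of this subcluster in the result was not tested.

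Of the 15 other family members in the tables, 1 could be tested in each mesenchymal class. Adamts10 was higher in HIF-1α KO in fibroblast-like nuclei, at 57.9 against 104 CPM, and Adamts19 was lower in smooth muscle-like nuclei, at 65.2 against 18.0 CPM. Adamts17 had the most UMIs of the 15 and was a goblet-like gene, at 77.4 and 141 CPM.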

How the data were processed

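Nuclei of frozen colon were sequenced with 10x 3′ chemistry. The authors ran Cell Ranger 7.0.1 on mm10 (GRCm38) and deposited UMI counts, by gene and barcode, for the barcodes kept by default calling; whether intronic reads were counted is not given in the sources used here. The libraries held 4896 and 4772 barcodes with 13492810 and 25489277 UMIs. Nuclei with 400 to 5000 detected genes and at most 10% mitochondrial UMIs were kept, 9586 in all. No doublet caller was run, and the upper gene limit alone removed candidate doublets.

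Nuclei were clustered with R 4.3.3 and Seurat 5.3.0 (anchors, 2000 features without ADAMTS genes, 30 principal components, resolution 1, seed 1), giving 23 clusters. A cluster took a name when at least 3 markers of 1 class were in excess (log2 of at least 1, in 10% of nuclei), at least 1 of them among its 10 leading genes; these limits were chosen with the data in view. Cluster names were rebuilt here, so differences from the study's may come from them. UMIs were summed per class with Python 3.11.15, numpy 2.4.6, pandas 2.3.3 and scipy 1.17.1. A difference was counted at 1.5-fold with 50 UMIs or more in both libraries combined. Intervals are exact Poisson for levels, Clopper-Pearson for shares and conditional binomial for ratios; the script was tested on simulated data. Sequences and positions came from GENCODE M21. TMM scaling used edgeR 4.0.16. The members and lists were chosen with earlier results of these data known. Genes named are every member, genes among the 3 most like each member with at least 200 UMIs (of which the text gives the first and a few others), and up to 4 genes per list and direction past 1.5-fold in fibroblast-like or smooth muscle-like nuclei; Vcan, Vegfc, Ccbe1, Adamts17 and the leading genes of subclusters were named in addition.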

Additional observations from a re-analysis of the deposited data

How the results depend on the processing

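No paired analysis was possible because each genotype had 1 library. With 1 pool of 3 animals per genotype, differences between animals and libraries cannot be told apart from genotype, and depth limits values below 50 UMIs. The cause of the changes that follow was not tested.

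Beside 0 members past 1.5-fold in fibroblast-like nuclei, 2 were lower (Adamts2 and Adamts3) with all deposited barcodes, at resolution 0.5, with ADAMTS genes among the features, with TMM scaling and, a choice made after seeing the data, without subclusters 0, 5 and 8. With each nucleus weighted equally 1 was lower (Adamts2), with at least 20 UMIs 1 (Adamts15), and with at least 1 UMI 3 passed, 2 lower and 1 higher. TMM scaling moved all log2 ratios of this class by -0.13, with 6.72% of genes higher and 10.9% lower in place of 10.8% and 7.04%. Beside 1 member in smooth muscle-like nuclei, 2 passed, Adamts9 lower and Adamts2 higher, with all barcodes, without integration, at resolution 0.5, with ADAMTS genes among the features and with classes from each nucleus's own marker score. There 3 passed with at least 20 UMIs and 5 with at least 1 UMI, all lower, and 0 after thinning, which left 2 members with enough UMIs. The log2 ratio of Adamts9 ran from -2.63 to -1.48 over the alternatives that kept 50 UMIs, and was -0.51 after thinning. That of Adamts6 in the same class ran from -0.08, after thinning, to 0.43. In all nuclei 6 passed after thinning, of 7 tested, and 4 at the WT make-up of classes, where the log2 ratio of Adamts5 turned to 0.40; the other settings left 8 to 10, all lower. The class with the highest level was unchanged for 8 to 10 members under other clusterings, and for 5 with each nucleus's own marker score. In crypt enterocyte-like nuclei Adamts15 stayed lower past 1.5-fold under 8 of 8 added alternatives, and in absorptive colonocyte-like, cycling-like and goblet-like nuclei under the 7, 7 and 4 of 8 that kept 50 UMIs. No other ratio changed sign among those past 1.5-fold.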
